A study of Mus musculus with 32 samples.

Results

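Mouse chromosome 9 carries 340 of the 5723 transcripts in the authors' deposited table of chromatin-bound RNA that differed between H1-TKO and wild-type (WT) embryonic stem cells. It also carries part of each of 6 lists of MapR peaks, which mark DNA near R-loops. The members are every transcript and every peak placed on chromosome 9, with no further choice. The H1-TKO libraries had 1328 of 25392 peaks (replicate 1) and 348 of 6458 peaks (replicate 2) there, and the WT libraries 1250 of 22336 and 349 of 6612. The chromosome was picked out for its high share of listed transcripts lower in TKO. That share, and every direction count taken from the same table, is therefore given as a description and without a test.

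The study set H1-TKO mouse embryonic stem cells against WT cells by several genomic assays, and the series holds 32 samples. H1-TKO cells lack 3 genes of the linker histone H1, which as background are Hist1h1c, Hist1h1d and Hist1h1e; the labels give the genotype only as H1-TKO. Both lines were kept in serum-containing medium with LIF, the cytokine that holds mouse embryonic stem cells undifferentiated, and the labels do not say whether TKO cells are 1 clone. cheRNA (chromatin-enriched RNA) came from 3 TKO and 3 WT samples, of which only the authors' table of differences was used, and MapR from 2 TKO and 2 WT libraries made with inactive RNase H fused to micrococcal nuclease (RNH), with 1 TKO and 1 WT control made with the nuclease alone. No label says that replicates were separate cultures, so a spread between libraries may be technical. The peak lists hold no read counts, so depth is unknown.

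Linker histone H1 sits on the nucleosome at the entry and exit of the DNA and helps to fold chromatin. An R-loop is a stretch of RNA paired with its DNA template while the other DNA strand is left single, and R-loops are known to form at promoters of active genes, most of all where the displaced strand is rich in G. RNase H recognises the RNA-DNA hybrid, so that an inactive form of it brings the attached nuclease to such sites. cheRNA is the RNA left in the chromatin pellet after nuclei are washed with urea and detergent, and holds nascent transcripts together with RNAs retained on chromatin.

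The sequences under 7 MapR regions show what kinds of DNA carried the peaks. Each was taken at or next to a peak summit, is printed on the strand of the nearest coding gene, and has runs of at least 4 G or 4 C in capitals. Coordinates are mm10, and the letters are those of the RefSeq assembly GRCm38. The first 3 regions had a peak in all 4 RNH libraries. They are the promoter of Rab39 at chr9:53706238-53706397, the promoter of Arid3b at chr9:57836794-57836862 and an intron of Pknox2 at chr9:37054101-37054260.
Rab39: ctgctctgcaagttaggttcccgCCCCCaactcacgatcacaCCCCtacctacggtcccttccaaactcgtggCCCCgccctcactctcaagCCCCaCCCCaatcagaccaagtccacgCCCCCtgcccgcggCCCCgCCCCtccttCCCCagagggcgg
Arid3b: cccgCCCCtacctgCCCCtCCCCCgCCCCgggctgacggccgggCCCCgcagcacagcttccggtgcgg
Pknox2: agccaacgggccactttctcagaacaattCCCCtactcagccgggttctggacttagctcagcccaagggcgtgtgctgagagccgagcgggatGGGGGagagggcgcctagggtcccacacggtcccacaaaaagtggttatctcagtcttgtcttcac
All 3 stretches had short runs of C or G. A further pair had peaks in both TKO libraries and in neither WT library. It consists of a simple repeat in an intron of Nxpe4 at chr9:48217668-48217827 and of GC-rich DNA upstream of Tbx20 at chr9:24781147-24781306.
Nxpe4: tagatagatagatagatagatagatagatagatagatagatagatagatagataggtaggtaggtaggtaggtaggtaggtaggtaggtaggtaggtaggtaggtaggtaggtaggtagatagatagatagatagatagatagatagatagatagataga
Tbx20: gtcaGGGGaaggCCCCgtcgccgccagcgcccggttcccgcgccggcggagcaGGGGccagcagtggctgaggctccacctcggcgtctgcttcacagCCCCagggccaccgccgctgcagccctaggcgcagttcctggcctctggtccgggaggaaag
The last pair had peaks in both WT libraries and in neither TKO library, in an intron of Hmgcll1 at chr9:76104893-76105052 and in intergenic DNA at chr9:17557404-17557563, for which Chordc1 is the nearest coding gene.
Hmgcll1: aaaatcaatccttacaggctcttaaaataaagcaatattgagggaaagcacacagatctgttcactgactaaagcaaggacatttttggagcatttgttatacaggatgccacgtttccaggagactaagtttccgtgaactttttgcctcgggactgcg
Chordc1: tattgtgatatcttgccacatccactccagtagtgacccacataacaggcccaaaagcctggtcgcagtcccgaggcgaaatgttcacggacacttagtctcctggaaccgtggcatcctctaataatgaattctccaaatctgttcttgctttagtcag

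Chromosome 9 transcripts lay mostly on the lower side in TKO. Of the 340 transcripts in the authors' deposited table, 233 (68.5%) were lower and 107 (31.5%) were higher in TKO, against 38.1% lower among the 5383 transcripts of the other chromosomes. Over all chromosomes, 39.9% of listed transcripts were lower and 60.1% were higher. The table holds only transcripts that differed by at least a log2 value of 1.00 and gives neither a p-value nor a value per sample. Its sign is also not stated: the gene transcripts of the deleted genes Hist1h1d, Hist1h1e and Hist1h1c read -5.02, -4.83 and -3.61 on the log2 scale once the deposited values were turned to TKO over WT, and that turn is an inference from those genes. In bulk RNA of this kind, fewer cells that make a transcript and less of it per cell cannot be told apart.

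Direction differed by transcript class, as the authors' names give it. Among transcripts that carry a gene's own name and strand, 184 of 233 on chromosome 9 (79.0%) were lower in the authors' deposited table, against 52.9% of 2671 elsewhere. Intergenic transcripts were close to even on chromosome 9, with 33 of 69 lower (47.8%), against 25.2% on the other chromosomes. For transcripts starting on the 5′ side of a gene, 11 of 18 were lower (61.1%), against 32.0% elsewhere, and for bidirectional transcripts 3 of 7 (42.9%), against 13.5%. Of the antisense transcripts within genes, 2 of 13 were lower (15.4%), against 13.3% in the deposited table elsewhere. Lower transcripts thus outnumbered higher ones in the gene and 5′ classes alone, while the lower share was above that of the other chromosomes in all 5 classes, least so for antisense transcripts.

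**Figure D1:**
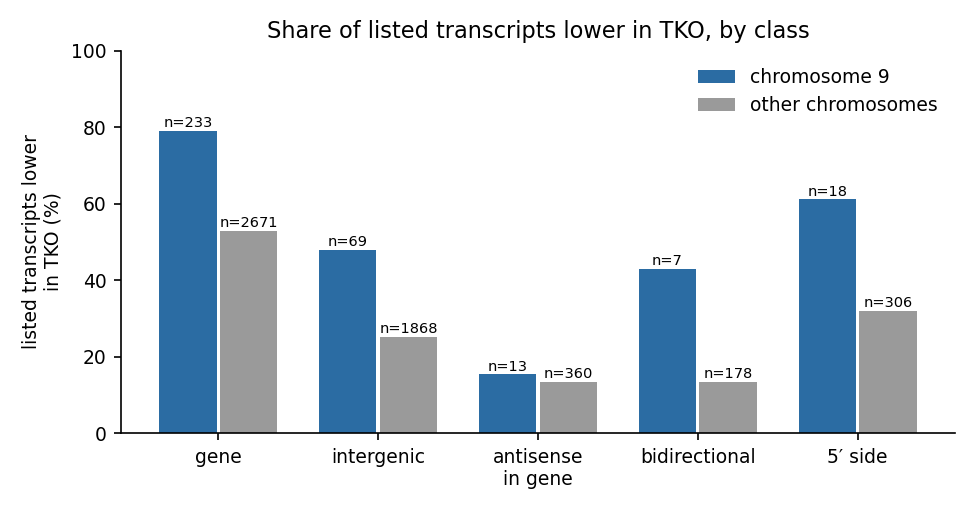
Percent of listed transcripts lower in TKO (y axis) for each transcript class (x axis), on chromosome 9 (blue) and on all other chromosomes (grey), from the authors' deposited table, with the number of transcripts over each bar. The chromosome 9 bar stands at 79.0% against 52.9% for gene transcripts, while antisense transcripts stand at 15.4% against 13.3%.

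The lower gene transcripts were mostly of moderate difference, and the values of the higher ones were set in large part by 1 gene, Thsd4. In the authors' deposited table the median log2 value of the lower gene transcripts of chromosome 9 was -1.48, against -1.69 elsewhere, and 138 of the 184 (75.0%) were below 4-fold, against 63.6% elsewhere. The higher gene transcripts had a median of 2.50, against 1.86 elsewhere, and 42.9% of them were below 4-fold, against 55.7% elsewhere. Of these 49 transcripts, 22 were pieces of Thsd4, none of them below 4-fold. Without Thsd4 the other 27 had a median of 1.70 in the deposited table, and 21 of them (77.8%) were below 4-fold. Both values then lay on the other side of those of the other chromosomes. The latter keep all pieces of their own genes, so the sets are not trimmed alike, and the part of this was not tested. The median width was 8668 bp for the higher gene transcripts (15040 bp without Thsd4) and 27380 bp for the lower ones.

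Counted by coding gene rather than by transcript, chromosome 9 lay near the end of the order of chromosomes in both directions. Of its 1210 coding genes, 136 (11.2%) had a gene transcript listed lower in the authors' deposited table, and 23 (1.9%) had one listed higher. Over all 21911 coding genes of the genome, 4.8% had a lower and 4.14% a higher one. Among the 21 chromosomes, chromosome 9 ranked 2 in its share of lower coding genes, behind chromosome 6 with 12.4%, and 20 in its share of higher ones. Chromosome 11 was at the other end, with the highest share of higher genes, 9.53%.

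**Figure D2:**
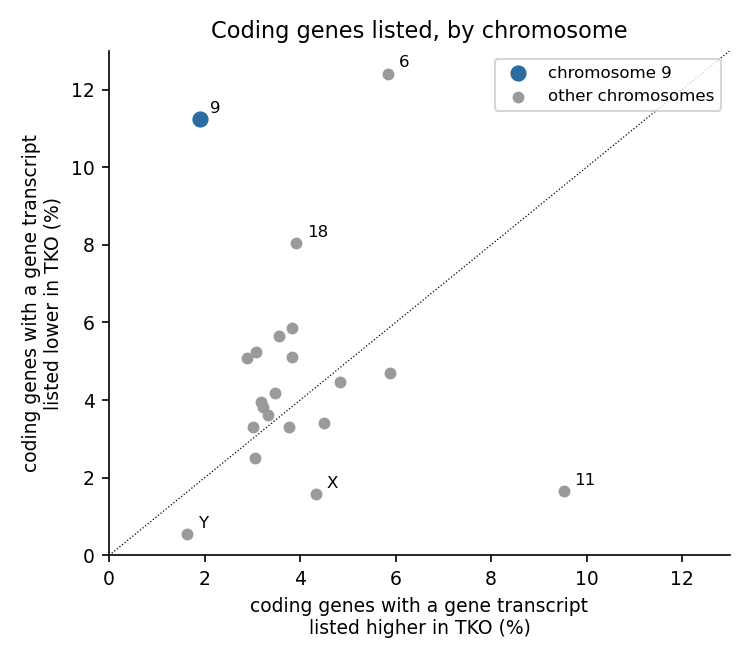
Share of coding genes with a gene transcript listed lower (y axis, %) against the share with one listed higher (x axis, %) in TKO, 1 point per chromosome, from the authors' deposited table; the dotted line marks equal shares. Chromosome 9 (blue) sits at 11.2% lower and 1.9% higher, near chromosome 6 in height and left of all but 1 chromosome.

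Transcripts lower in TKO were spread along the whole chromosome, with a dense block between 40 and 50 Mb. That bin held 54 transcripts of the authors' deposited table, the most of any 10 Mb bin, and 50 of them were lower (92.6%). Bins at 10 to 20 Mb and at 90 to 100 Mb each had 15 lower of 18, and the bin at 20 to 30 Mb had 14 of 17. Only the bins at 60 to 70 Mb, with 19 of 45, and at 80 to 90 Mb, with 3 of 7, had fewer lower than higher transcripts in the deposited table. Of the 26 higher transcripts in the bin at 60 to 70 Mb, 23 were named for the gene Thsd4. With these set aside, lower transcripts outnumbered higher ones in that bin as well.

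The block at 40 to 50 Mb included the longest run of neighbours in 1 direction, 26 consecutive lower transcripts from 40686108 to 44113441 (3.43 Mb), from Clmp to Rnf26 in the authors' deposited table. Pieces of 1 gene count separately in this run and in its bin, among them 7 of Grik4, 3 of Clmp, 3 of Ubash3b and 2 of Trim29. Within the run, a group of 16 transcripts with gaps of at most 250 kb, at 42533373 to 43811937, was lower throughout. This group held Grik4, a kainate-type glutamate receptor subunit, Arhgef12, an activator of small GTPases, Pou2f3, a POU-domain transcription factor, Trim29, an epithelial tripartite-motif protein, and Nectin1, a cell adhesion molecule. The group next to it, at 44075967 to 46283010 from Rnf26 to Zpr1, had 24 transcripts in the authors' deposited table, 22 of them lower, with a median log2 of -1.48. Dscaml1, an adhesion molecule of neurons, was in that group with 5 lower pieces between -2.92 and -1.99 on the log2 scale of the deposited table.

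The other large groups were mixed or went the other way. At 57473052 to 58345490, 10 of 12 transcripts were lower in the authors' deposited table, among them those of Csk, a kinase that restrains Src, Cyp11a1, Pml and Loxl1. At 108479955 to 109128515, 7 of 10 were lower, including Lamb2, Celsr3, Col7a1 and Plxnb1, and the 5′-side transcript of Arih2 was higher. The group at 59890682 to 60521974 had 23 higher transcripts of 24 in the deposited table, all 23 named for Thsd4, a thrombospondin-repeat protein of the extracellular matrix. Of all 102 groups at this spacing, 59 held several transcripts, and these comprised 26 lower throughout, 8 higher throughout and 25 mixed.

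**Figure D3:**
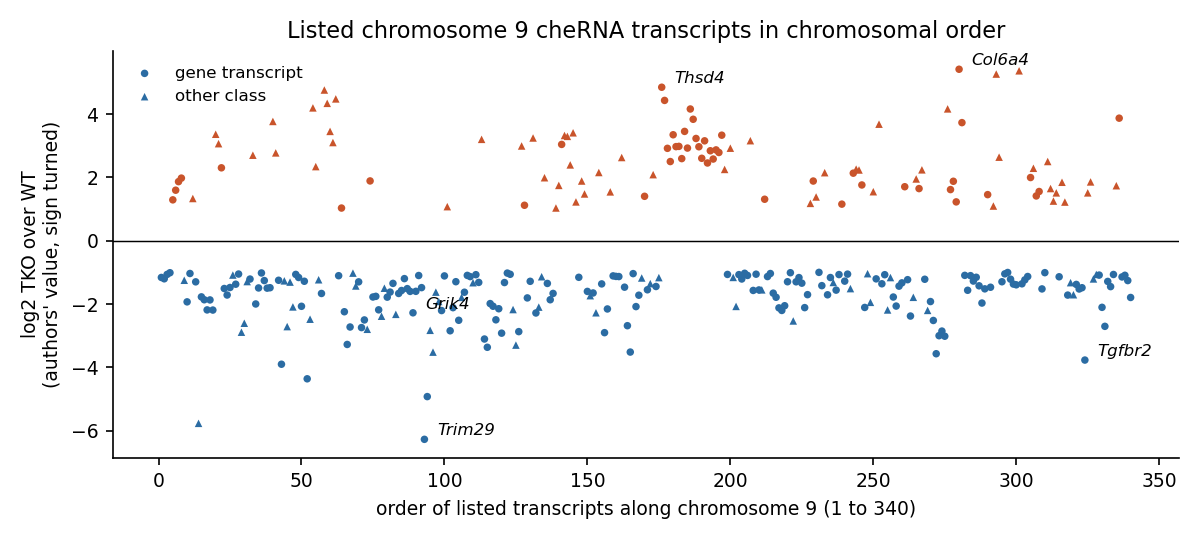
The log2 value TKO over WT of each listed chromosome 9 transcript (y axis; authors' deposited value with its sign turned) in order along the chromosome (x axis, 1 to 340), with lower transcripts in blue, higher in red, gene transcripts as circles and other classes as triangles. Points below 0 make up 68.5%, and the compact cluster above 0 near the middle is the set of Thsd4 pieces, with a median of 2.97.

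Several genes were listed in pieces, which lie along 1 gene and are not independent. Of 160 genes with a gene transcript in the authors' deposited table, 137 were lower in every piece, 22 were higher in every piece and Maml2, a Notch coactivator, had pieces in both directions. Thsd4 alone gave 22 of the 49 higher gene transcripts, with log2 values between 2.45 and 4.85 in the deposited table. Grik4 had 7 lower pieces from -2.28 to -1.20, and Rora, a nuclear receptor, had 6 lower pieces from -2.20 to -1.30 in the authors' deposited table. Slco2a1, a prostaglandin transporter, had 5 lower pieces from -3.57 to -2.52, and Pdgfd, a platelet-derived growth factor ligand, had 4 higher pieces from 1.29 to 1.98. Counting each gene name once per class put the lower share of the deposited table at 72.2% of 248.

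Gene transcripts made up 8 of the 10 lowest values, near their part in all lower transcripts of the chromosome, 184 of 233. Trim29 was the lowest in the authors' deposited table, with a piece at 43310855 to 43311680 at -6.27 on the log2 scale (77.4-fold lower in TKO) and a longer piece at -4.92. Tmem45b followed among gene transcripts at -4.36 over 86.2% of the gene, and Tbx20, a T-box factor of the developing heart, was at -3.90 over its whole length in the deposited table. Tgfbr2, the type II receptor of TGF-beta, was at -3.77 (13.6-fold lower in TKO) over its whole length as well. Slco2a1 at -3.57, Cyp11a1, the enzyme that turns cholesterol into pregnenolone, at -3.52, and Tmprss13, a membrane serine protease, at -3.37 completed the gene transcripts among the 10 lowest of the deposited table. The remaining pair were intergenic, an RNA at 11961388 to 11962119 at -5.77 that is named for Cntn5 but lies 1056610 bp from it, and an RNA at -3.52 that is 163688 bp from Nectin1.

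The 10 highest values included 3 gene transcripts, beside 49 gene transcripts among all 107 higher transcripts of the chromosome. In the authors' deposited table a piece of 1975 bp in Col6a4, a collagen VI chain, was highest, at 5.41 on the log2 scale (42.6-fold higher in TKO), and the Thsd4 pieces at 4.85 and 4.43 were the other gene transcripts among the 10 highest. An intergenic RNA 14653 bp from Cdc25a, a cell-cycle phosphatase, was at 5.36, and a 5′-side transcript of Arih2, a ubiquitin ligase, was at 5.26 in the deposited table. Antisense RNAs took 4 of the 10 places: at Kirrel3, an immunoglobulin-family adhesion gene, with 4.76 and 4.34, at Dcps, the scavenger decapping enzyme, with 4.48, and at Tmem108 with 4.16 in the deposited table. An intergenic RNA 8255 bp from the homeobox gene Barx2 was at 4.19.

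Gene lists chosen for chromosome 9 by function were set against the authors' deposited table with each listed gene counted once. Of 178 list members on the chromosome, 29 had lower gene transcripts, 8 had higher ones and 141 had none in the table. The shares to read these counts and those of each list against are 11.2% lower and 1.9% higher over all 1210 coding genes of the chromosome. The listed members had a median log2 of -1.39, beside -1.30 over all 160 chromosome 9 genes with a gene transcript in the deposited table. A gene that is absent from the table may be unchanged or may not have been measured.

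Adhesion and axon guidance was the list with the most lower members, 9 of 23, with 1 higher. Robo4, a Roundabout receptor of blood vessels, was at -2.73 and Nectin1 at -2.21 on the log2 scale in the authors' deposited table. Sema3b, Sema3f and Sema7a, which are semaphorin guidance cues, were at -1.97, -1.52 and -1.47, and Neo1, a netrin receptor, was at -1.55 in the deposited table. Plxnb1, a semaphorin receptor, Celsr3, a cadherin of planar polarity, and Megf11 were the remaining lower members, between -1.39 and -1.06. Ncam1, the neural cell adhesion molecule, was the higher one, at 1.12 in the deposited table across its whole gene. Neurotransmitter receptor and ion channel genes were near the 11.2% of all chromosome 9 coding genes listed lower: Grik4 was the lower member of 10 neurotransmitter receptor genes and Cacna2d2, a calcium channel subunit with a median of -1.16 over 3 pieces in the deposited table, that of 12 ion channel genes.

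Genes of the extracellular matrix went both ways. Among 10 collagen, laminin and related genes, 4 were lower and 2 were higher in the authors' deposited table. Loxl1, which cross-links elastin, had a median of -1.90 over its pieces and Lamb2, a laminin chain, was at -1.47, while Crtap, a collagen-modifying factor, was at -1.14 and Col7a1, the collagen of anchoring fibrils, at -1.05. The higher members were neighbouring collagen VI genes, Col6a4 with a median of 4.57 and Col6a5 with 1.23 in the deposited table. Of 14 matrix protease genes, Adamts7 was at -2.11 and Adamts8 at -2.07, and none of the rest of that list, which were 12 genes, appeared in the deposited table.

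Of 14 growth factor signalling genes, 4 were lower and 0 higher in the authors' deposited table: Tgfbr2, Mras, a Ras-family GTPase, at -2.38, Smad3, which carries the TGF-beta signal to the nucleus, at -1.07, and Yap1, the Hippo coactivator, at -1.04. Outside that list, the growth factor ligand Pdgfd was higher, as given above. Birc3, an inhibitor of apoptosis, was at -1.93 and was the 1 listed gene among 5 caspase and inhibitor genes. Among 18 developmental transcription factors, Tcf12, a helix-loop-helix factor, was at -1.70 and Pou2f3 at -1.48 in the deposited table, a count near the 11.2% of all chromosome 9 coding genes. The list left out Tbx20, lower at -3.90, and Pknox2, lower at -3.28 and -2.24. Its count therefore holds for the 18 members and not for the whole class. Of 16 genes of chromatin and genome maintenance, Pml, which organises nuclear bodies, was the single listed one, at -1.04.

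Lipid and retinoid genes split. Cyp11a1 and Rora were lower in the authors' deposited table, with medians of -3.10 and -1.92, and Crabp1, which binds retinoic acid, was higher at 3.04. Of 9 genes of oocytes, pluripotency and meiosis, 3 were higher: Khdc3, of the maternal complex of the oocyte, at 1.88, Rec114, needed for meiotic DNA breaks, at 1.40, and Ddx25, a helicase of male germ cells, at 1.03. Topaz1, another germ-cell gene, was lower in the deposited table, at -1.26. The list left out other genes known from germ cells, which went both ways. Ddx43 and Piwil4 were lower, at -1.56 and -1.38, and Prss42 and Prss50 were higher, at 1.41 and 1.55. The count therefore holds for the 9 members and not for the whole class. None of 13 chemokine receptor genes, 13 ribosomal protein and housekeeping genes and 4 glutathione S-transferase genes had a gene transcript in the table.

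Chromosome 9 carried a similar share of the MapR peaks in both genotypes. After peaks that met a nuclease-only control peak were removed, TKO libraries kept 1288 and 308 peaks on chromosome 9 and WT libraries kept 1214 and 314. Replicate 1 of each genotype had far more peaks than replicate 2, a larger gap than that between same-numbered libraries of the genotypes. On the log2 scale, the number of peaks differed by 0.029 TKO over WT (exact permutation test of 2 against 2 libraries, two-sided, p = 1). Chromosome 9 held 5.17% and 5.12% of all kept TKO peaks, against 5.54% and 5.09% of all kept WT peaks, with means of 5.14% ± 0.028 and 5.31% ± 0.31 (SD, n = 2 each). The groups overlapped, and the difference of -0.17 percentage points was within the spread between libraries (exact permutation test, p = 1). With 2 libraries on each side, the smallest p that this test allows is 0.33, so none of the 5 measures tested could pass 0.05, and adjusted over the 5 by Benjamini-Hochberg every p was 1.

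**Figure D4:**
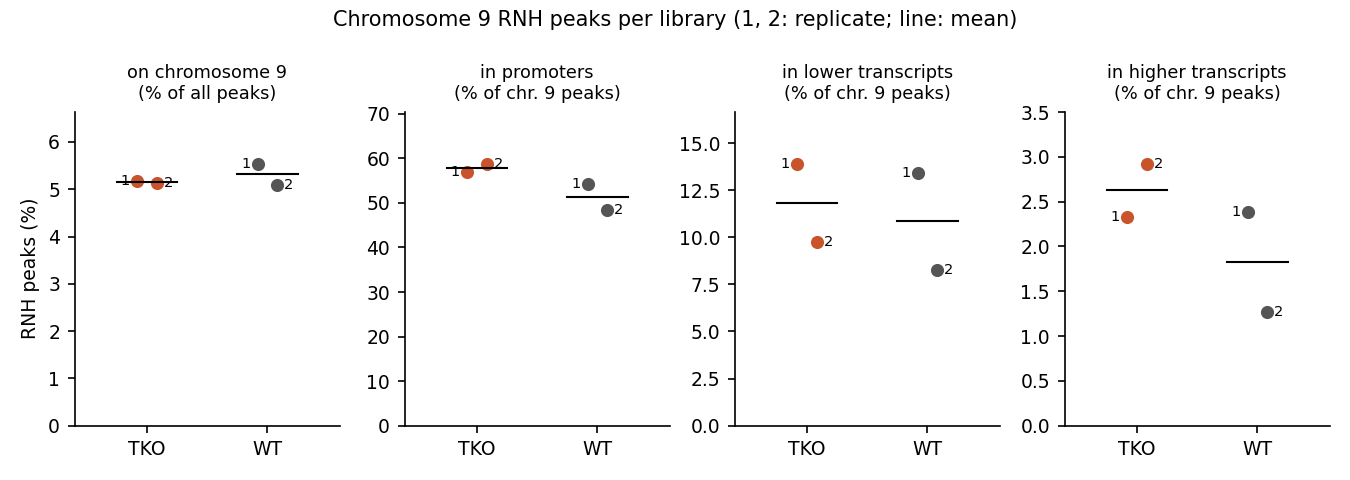
Chromosome 9 RNH peaks in the 2 TKO libraries (red) and the 2 WT libraries (grey), with 1 and 2 marking the replicate and the line the mean; the y axes give, from left to right, the percent of all peaks that lie on chromosome 9 and the percents of chromosome 9 peaks in promoters, in transcripts lower in TKO and in transcripts higher in TKO. The promoter shares do not overlap between genotypes at these full list lengths, with means of 57.8% in TKO and 51.3% in WT.

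Promoters took a larger share of the peaks in TKO libraries. Within 1 kb of an annotated start lay 56.8% and 58.8% of the chromosome 9 peaks of TKO libraries, against 54.3% and 48.4% of those of WT libraries. Both TKO values were above both WT values, with means of 57.8% ± 1.37 and 51.3% ± 4.15 (SD, n = 2 each) and a difference of 6.45 percentage points; the exact permutation test gave its lower limit, p = 0.33. At equal list lengths the difference was 5.28 percentage points (exact permutation test, p = 0.67). The TKO values were then no longer both above both WT values. Peaks inside transcripts lower in TKO made up 13.9% and 9.74% in TKO libraries, against 13.4% and 8.28% in WT libraries, a difference of 0.97 percentage points that lay within the spread (exact permutation test, p = 0.67). Peaks inside transcripts higher in TKO made up 2.33% and 2.92% in TKO, against 2.39% and 1.27% in WT, and these values overlapped too (difference 0.79 percentage points, exact permutation test, p = 0.67). All p-values here measure only the spread between these libraries.

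Along the chromosome, the bin with the most listed transcripts was not the one with the most peaks. The 40 to 50 Mb bin, dense in lower transcripts, held 124 and 23 peaks in TKO libraries, against 118 and 19 in WT libraries. TKO replicate 1 had its highest number in the 50 to 60 Mb bin, 143, where WT replicate 1 had 136. The 100 to 110 Mb bin, rich in coding genes, held 134 and 51 TKO peaks, against 136 and 40 WT peaks.

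On chromosome 9, lower gene transcripts held a peak more often than higher ones in each of the 4 libraries, a count of transcripts and not a test. At least 1 peak lay in 56.5% and 13.6% of the 184 lower gene transcripts in the TKO libraries, against 53.3% and 12.0% in the WT libraries. Of the 49 higher gene transcripts, 22.4% and 6.12% held a peak in TKO libraries, against 12.2% and 6.12% in WT libraries. Without the 22 Thsd4 pieces, the other 27 held a peak in 40.7% and 11.1% of cases in TKO libraries, against 22.2% and 7.41% in WT libraries, still below the lower transcripts in each library. On the other chromosomes a peak lay in 42.3% and 9.48% of lower gene transcripts in TKO, against 43.0% and 13.1% in WT, and in 38.6% and 11.5% of higher ones in TKO, against 32.3% and 6.52% in WT, so that the order was turned round in TKO replicate 2. The lower gene transcripts of chromosome 9 were also longer (median 27380 bp against 8668 bp), and the part of length in this was not tested. At promoters, peaks lay at 63.0% and 13.3% of the 135 coding genes with lower transcripts alone in TKO libraries, against 49.6% and 11.1% in WT libraries. Coding genes of chromosome 9 that were not listed had a promoter peak in 47.2% and 13.2% of cases in TKO, against 44.96% and 11.6% in WT. The larger value of the first set was thus seen in TKO replicate 1 and was not seen in TKO replicate 2. Of the 22 coding genes with higher transcripts alone, 50.0% and 4.55% had a promoter peak in TKO, against 27.3% and 0% in WT.

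Set against lists of the same replicate number, peaks of the other replicate met across genotypes about as often as within them. Of the TKO replicate 2 peaks, 62.7% met a TKO replicate 1 peak and 65.9% met a WT replicate 1 peak. Of the WT replicate 2 peaks, 60.5% met a WT replicate 1 peak and 58.0% a TKO replicate 1 peak. Median fold enrichment over the local background, which is the authors' own value for each peak, was 3.79 and 4.64 in the TKO lists and 3.66 and 4.21 in the WT lists, and is comparable within a list alone.

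When overlapping peaks of the 4 RNH libraries were joined, chromosome 9 had 1861 regions, and 1006 of them rested on 1 library. Peaks of all 4 libraries met in 88 regions (4.73%), against 4.51% on the other chromosomes and 4.52% over all. Regions with both TKO libraries and no WT library numbered 19 (1.02%, against 1.22% elsewhere and 1.21% over all), and those with both WT libraries and no TKO library numbered 23 (1.24%, against 1.26% elsewhere and 1.26% over all). The shares of all 3 kinds on chromosome 9 were near those of the genome. The counts depended on the settings: at a -log10 q of at least 5 there were 22 all-4, 8 TKO-only and 9 WT-only regions, and with a reciprocal overlap of at least 50% there were 20, 9 and 23.

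Regions found in all 4 libraries were mostly at promoters, with 71 of 88 (80.7%) within 1 kb of a start, 9 in introns and 8 intergenic. TKO-only regions were at promoters in 8 of 19 cases and WT-only regions in 7 of 23. All-4 regions were GC-rich: in a window of 160 bp around the summit the median GC content was 64.7%, against 43.1% over all windows of chromosome 9, and the median number of CpG dinucleotides was 12, against 1. A run of GGGG on either strand was found in 88.6% of these windows, in 89.5% of TKO-only and 78.3% of WT-only windows, and in 50.1% of all windows of the chromosome. Regions outside promoters often lay in repeats, with a median of 67.5% repeat-masked bases in the 17 all-4 regions there, against 0% in the promoter regions. These are descriptions of the letters under the peaks and show no hybrid by themselves.

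The all-4 region with the highest smallest fold enrichment lay in an intron of Pxylp1, a gene for a phosphatase of proteoglycan synthesis, at 96852808 to 96853337. Its peaks had fold enrichments of 5.99 and 9.28 in TKO and of 6.32 and 5.95 in WT, each within its own list. The 160 bp window around its summit was 100% repeat-masked, with 0 CpG and 10 copies of the telomere hexamer TTAGGG, counted on both strands. At least 4 copies were found in 1 of the 88 all-4 windows and in 44 of 757197 windows of the chromosome.

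Of these 10 regions, 8 were at promoters. Rab39, a Rab GTPase, had a region at 53705595 to 53706870 with 5.34 and 6.25 in TKO and 5.58 and 8.21 in WT. Its printed stretch, around a summit 86 bp upstream of the start, has 10 CpG. It has many short runs of C on the strand of the gene, which are runs of G on the other strand. Arid3b, an AT-rich DNA-binding factor, had 5.15 and 6.49 in TKO and 5.47 and 5.98 in WT at its start, and its gene transcript was lower in the authors' deposited table, at -1.13 on the log2 scale. Shared promoter regions of head-to-head genes followed, at Kbtbd3 and Aasdhppt (5.22 and 5.10 in TKO; 5.68 and 6.31 in WT) and at Azi2 and Zcwpw2 (4.58 and 5.81 in TKO; 5.07 and 4.68 in WT). Map4, a microtubule protein, Dennd4a, a Rab activator, Fam118b with Rpusd4, and Myo6, an actin motor, were the other promoters, and an intron of Mei4, a gene of meiotic DNA breaks, held the remaining one, with 6.34 and 4.56 in TKO and 5.20 and 4.71 in WT. TKO and WT values overlapped in most of these regions, and folds from lists of different length are not compared further.

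**Figure D5:**
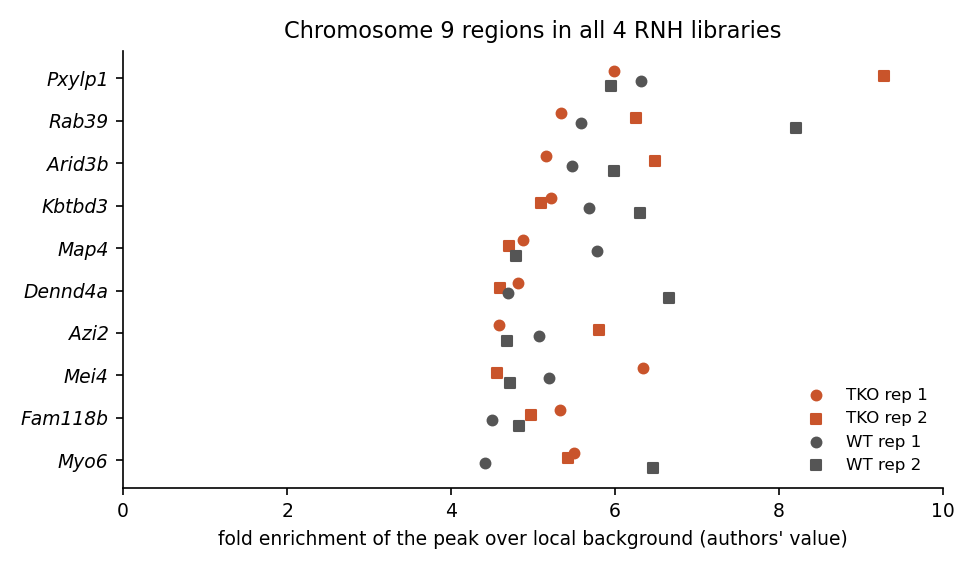
Fold enrichment over local background (x axis, the authors' value in each library's own list) of the 10 chromosome 9 regions found in all 4 RNH libraries with the highest smallest fold, named on the y axis by the nearest coding gene; red marks TKO, grey WT, circles replicate 1 and squares replicate 2. Pxylp1 at the top has 5.99 and 9.28 in TKO and 6.32 and 5.95 in WT.

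Lower transcripts held 10 of the all-4 regions (11.4%) and higher transcripts 1 (1.14%). These shares were close to those of all chromosome 9 peaks, of which 8.28% to 13.9% lay in lower and 1.27% to 2.92% in higher transcripts, depending on the library. Pknox2, a homeobox gene of the TALE class, had the lowest such transcript, at -3.28 on the log2 scale of the authors' deposited table, and its region is the intronic stretch printed above. Ap1m2, an epithelial sorting adaptor, Rab3d, a secretory Rab, Ccdc84, and Dock6, another activator of small GTPases, followed at -1.999, -1.50, -1.30 and -1.26 in the deposited table. Ncam1 was the higher one, at 1.12. The regions inside the Ap1m2 and Ccdc84 transcripts lay at promoters of other genes, Cdkn2d for the first and Rps25 with Trappc4 for the second. Those inside the Rab3d and Dock6 transcripts lay at the promoters of these genes themselves.

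The TKO-only region with the highest smaller fold was the GATA and GTAG repeat in an intron of Nxpe4, with 5.70 in TKO replicate 1 and 6.92 in TKO replicate 2. Next came the promoter of Dmxl2 (4.55 and 5.11 in TKO), and a region 6924 bp upstream of Tbx20, inside the gene model Gm29824 (4.19 and 4.71 in TKO). The last of these lies near one of the lowest gene transcripts of the chromosome, and its printed sequence has 15 CpG and a GC content of 74.4%. Promoters of Ip6k1, an inositol phosphate kinase (4.06 and 4.99 in TKO), and an intergenic site 197367 bp from Trpc6 (3.85 and 5.53 in TKO) completed the first 5. Transcripts with a TKO-only region included those of Pou2f3, Tln2, Myo1e and Crtap, all lower in the authors' deposited table, and a pair of intergenic RNAs beyond Crabp1, higher at 3.32 and 3.29 on the log2 scale.

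Of the WT-only regions, the strongest were the intergenic site 734641 bp from Chordc1 (4.72 and 5.20 in WT) and the intron of Hmgcll1 (4.47 and 4.56 in WT), whose gene transcript was lower at -1.71 in the authors' deposited table. An intergenic site near Olfr871, an olfactory receptor gene, had 4.36 and 5.56 in WT, an intron of the gene model Gm46102 had 4.79 and 4.25, and the promoter of Pclaf, a PCNA-binding factor, had 3.93 and 4.13. The first pair shared sequence: 85 of 97 aligned bases (87.6%) were identical between the printed Chordc1 and Hmgcll1 stretches, on opposite strands. At 80% identity over 70 bases, 58 copies of this repeat were found on chromosome 9. Regions that held a copy numbered 2 of 1861 on chromosome 9 and 5 of 33738 elsewhere. The 2 on chromosome 9 are the Hmgcll1 and Chordc1 regions from which the repeat was taken. That they are WT-only was thus fixed by that choice. The other 5 had a peak in WT replicate 1 and in none of the other RNH libraries. The repeat was noticed after the sequences had been seen, and is given as a description.

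The nuclease-only controls gave 43 peaks on chromosome 9 in TKO and 43 in WT. These joined into 56 regions, 30 of which were in both controls, and 27 of the 30 met a peak in all 4 RNH libraries. In the first stretch of sequence below 3.1 Mb lay 16 of the 30. Farther along, the strongest were at 24541926 to 24542266, with a fold enrichment of 33.3 in TKO and 32.5 in WT, at 123461804 to 123462189 in Lars2, a mitochondrial leucyl-tRNA synthetase gene (31.3 in TKO and 30.9 in WT), and at 35305143 to 35305702 in Gm33838 (26.3 in TKO and 28.5 in WT). Regions that met any control peak were removed from the shares and regions above.

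The labelled cell type could be checked only through promoter peaks and listed transcripts, since the files hold no expression levels. Of 9 markers of embryonic stem cells, including Pou5f1, Sox2 and Nanog, 7 had a promoter peak in at least 1 RNH library, 0 had one in all 4, and 0 were listed as differing. A promoter peak in at least 1 library was also found at 4 of 6 fibroblast, 3 of 4 neural and 1 of 5 endoderm markers. Vim, a fibroblast marker, was the 1 marker with a peak in all 4. Promoter peaks thus did not set the stem cell list apart, and the same share over all genes was not computed. Among the fibroblast markers Vim was listed, higher at 2.25 on the log2 scale of the authors' deposited table. Of 4 neural markers, 3 were listed as higher in TKO: Tubb3 at 2.77, Pax6 at 1.52 and Ncam1, the chromosome 9 member, at 1.12. Of 5 endoderm markers, Dab2 was lower, at -1.81. Over all coding genes of the genome, 4.8% had a gene transcript listed lower and 4.14% had one listed higher. Lists of 4 to 9 genes are small to set beside these shares. The part of the markers in the chromosome 9 differences was not tested.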

How the data were processed

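What was used were 6 MapR peak lists (2 RNH libraries and 1 nuclease-only library per genotype) and 1 table standing for 3 TKO and 3 WT cheRNA samples; the other assays of the series were not analysed here. The submitters' processing notes name MACS2, DESeq2, bedtools, BWA, TopHat2 and SAMtools and build mm10, with versions, options and peak-calling control not given in the sources used here. For its part, the cheRNA table was deposited by the authors with a log2 fold change per transcript, without p-values or values per sample; all values were multiplied by -1 to read TKO over WT, from the deleted H1 genes. Each deposited peak list gives a fold enrichment (a ratio), -log10 p, -log10 q and a score per peak.

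Transcript classes follow the prefixes of the deposited names. Positions were compared with GENCODE M21 (Python 3.11.15, pandas 2.3.3) by overlaps of at least 1 bp, written 1-based; overlaps were tested on simulated intervals. Peaks that met a control peak of either genotype were removed. Libraries were compared by exact permutation tests (numpy 2.4.6), adjusted over 5 measures. Sequences came from RefSeq GRCm38, repeats from soft-masking, and copies of 1 repeat from blastn 2.17.0. Members and gene lists were chosen with earlier results of these data known. Named are the 10 highest and 10 lowest transcripts, list members, the 5 largest groups, the 10 strongest all-4 and 5 genotype-only regions of each kind, transcripts holding them, control peaks and deleted H1 genes. After each library's mean was removed, deviations of same-numbered TKO and WT libraries had a correlation of -0.069 over 274 bins of 10 Mb. That check cannot see the gap in peak number that same-numbered libraries share, so it does not decide whether they are pairs. The labels do not state pairing, so the main tests did not take the numbers as pairs. Depth is unknown, so no interval for counting error is given. Alternatives were a stricter peak threshold, equal list lengths, control peaks kept, narrower promoters, reciprocal overlap, each library left out and other ways to count transcripts. Some items that these rules would name are left out of the text.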

Additional observations from a re-analysis of the deposited data

How the results depend on the processing

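The share of chromosome 9 transcripts lower in TKO, 68.5%, was 72.2% with 1 count per gene name and class and 64.0% without the 10 Mb bin that holds the most transcripts. It was 50.4% among the 129 transcripts with an absolute log2 of at least 2, 82.8% by summed width, 79.0% for gene transcripts alone and 73.5% without the transcripts named for Thsd4, a setting added after the data had been seen. The values of the higher gene transcripts without Thsd4 are another added setting. For the classes other than gene it was 45.8%, so most of these were higher. These settings differ in which transcripts they count, and their causes were not tested.

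The log2 difference in peak number, 0.029, was -0.019 at equal list lengths. It ran from -1.003 to 1.06 with 1 library left out, negative without TKO replicate 1 (-1.003) or WT replicate 2 (-0.95) and positive without either of the other two libraries, which follows from the unequal list lengths of the replicates. The difference in the share of peaks on chromosome 9 (-0.17 percentage points) ran from -0.39 to 0.052, and turned positive without WT replicate 1. The promoter difference (6.45) stayed positive in every setting run, from 5.12 to 6.47 over the settings and from 3.52 to 9.39 with 1 library left out. At equal list lengths it was 5.28 (exact permutation test, p = 0.67), and the TKO values were no longer both above both WT values. For peaks in lower transcripts the difference (0.97) was -2.01 at a -log10 q of at least 5, and ran from -1.61 to 3.54, negative without TKO replicate 1 (-1.11) or WT replicate 2. For peaks in higher transcripts it ran from 0.24 to 1.35. With the replicate block, taking equal numbers as pairs, the differences were the same (0.029, -0.17, 6.45, 0.97 and 0.79) and the exact p-values were 1, 1, 0.5, 0.5 and 1, where 0.5 is the smallest that 2 pairs allow. No p in any setting could pass 0.05.

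Region counts depended on the peak threshold and the overlap. At a -log10 q of at least 5 there were 8 TKO-only, 9 WT-only and 22 all-4 regions, against 19, 23 and 88. With a reciprocal overlap of at least 50% there were 9 TKO-only and 20 all-4 regions, and 23 WT-only ones. With regions that meet a control peak kept, the counts were 20, 23 and 120. With unknown depth, a region missing from a short list may hold signal below the threshold.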
